A study of Homo sapiens with 24 samples.

Results

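CA10, ARHGAP36 and DRD1 are 3 of the 57736 genes in the count table of the U87-T libraries. They were chosen by their measured counts, being expressed in WT control libraries and near 0 in both DAXX_KO and ATRX_KO cells. Their control levels are therefore given as a description, with no test, and tests were made only on libraries with etoposide. Those libraries come from the same WT cells and knockout clones, and the choice did not limit the knockouts to control. The tests are thus not independent of the choice.

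CA10 is a secreted glycoprotein of the carbonic anhydrase family that has lost catalytic activity and binds neurexins, the presynaptic adhesion molecules. ARHGAP36 belongs to the RhoGAP family and is known for binding the catalytic subunits of protein kinase A and blocking their activity, which favours signalling through the Hedgehog and GLI pathway. DRD1 is the D1 dopamine receptor, which couples to stimulatory G proteins, raises cyclic AMP and thereby activates protein kinase A. CA10 and DRD1 are best known from neurons of the brain, and ARHGAP36 from endocrine and developing neural tissue. DAXX and ATRX form a complex that places a variant of histone H3 in repetitive and silent chromatin.

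RNA was measured in 24 libraries of U87-T, a human glioblastoma line that carries a TERT transgene. The libraries form 2 series, named for DAXX and ATRX, each with its own WT libraries and 3 libraries per group. The paper names a single control line, and the labels do not say whether the WT cells of the series differ. Cells of each genotype were sampled in control and with etoposide, a topoisomerase II inhibitor that breaks DNA. The WT cells carried the empty Cas9 vector, and DAXX_KO and ATRX_KO were each 1 clone grown from a single cell, so the knockout and the clone cannot be told apart. The paper describes both clones as survivors of continued passage that had gained features of alternative lengthening of telomeres. A change shared by both knockouts thus cannot be told apart from this shared selection and passage. The dose and duration of etoposide for these libraries are not given in the sources used here, and the control cells are untreated by their labels and DMSO-treated in the figures of the paper. The study describes its replicates in general as biological, and the labels name no culture for each library. P-values measure the spread between libraries, not that between clones.

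Library totals ranged from 6928950 to 13298557 counts (median 10267415), and levels are in CPM, which relates each count to its library's TMM-scaled total. A gene without a count may still have been present at up to 3 counts, or 0.215 to 0.407 CPM per library, a limit that covers counting error only. DAXX mRNA fell in DAXX_KO control libraries, from 34.5 ± 1.27 to 5.92 ± 1.08 CPM (SD, n = 3), with a log2 fold change of −2.53 and an adjusted p of 7.34e-11 in edgeR's quasi-likelihood test. ATRX mRNA fell by 1.25 on the log2 scale in ATRX_KO (adjusted p = 9.38e-09 in edgeR). Reads from 3′ ends do not show the edited sequence, so this is a check of the labels only. Of the markers of a mesenchymal glioblastoma line, 6 of 6 were above 1 CPM in a group, with VIM at 1635 to 5798 CPM over the groups. Of the 7 glial markers S100B had no count in any library, AQP4 had at most 1, and GFAP was at most 0.246 CPM, so these astrocyte markers were near absent. The other 4 reached 1 CPM in a group. SOX2, a factor of neural progenitors, was at 1.64 and 4.22 CPM in WT control and at 0.342 and 0.111 CPM in DAXX_KO and ATRX_KO control. The growth factor receptor PDGFRA was at 2.11 and 2.63 CPM in WT control and at 0.0831 and 0.138 CPM in the knockouts, and is itself among the genes that meet the rule below. Both were thus lower beside the members. The summed glial list, nearly all of it NES, lay between 76.5 and 96.4 CPM in the WT control libraries and between 52.5 and 68.9 CPM in the KO control libraries. The summed neuron list, most of it TUBB3, lay between 496 and 708 CPM in WT control and between 326 and 398 CPM in KO control. Its genes did not move together. TUBB3 fell from 479.7 to 269.8 CPM in DAXX_KO control and from 647.3 to 362.1 CPM in ATRX_KO control. SNAP25 rose from 5.304 to 18.23 CPM and from 2.661 to 5.456 CPM. SYT1 was higher in DAXX_KO and lower in ATRX_KO, GAD1 was higher in ATRX_KO, and SLC17A7 was lower in both. The summed blood and endothelial list lay between 22.7 and 30.2 CPM in WT control and between 17.8 and 23.7 CPM in KO control. The part of these shifts in the levels below was not tested.

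On build 37 of the human genome, CA10 (ENSG00000154975) lies on the minus strand at chr17:49707674-50237377 and spans 529704 bp. ARHGAP36 (ENSG00000147256) lies on the plus strand at chrX:130192320-130223859 and spans 31540 bp. DRD1 (ENSG00000184845) lies on the minus strand at chr5:174867039-174871185 and spans 4147 bp. The values are counts over whole genes, so no exon, intron or UTR was resolved. In the annotation, 1 gene on the same strand overlaps CA10 and has no row in the count table, and no gene overlaps ARHGAP36 or DRD1.

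The promoter of each gene is shown because the 3 genes share a pattern of expression, and the letters let their proximal sequences be compared. RefSeq windows on GRCh38.p14 hold the 250 bases before and the first 50 bases of a transcript start, 5′ to 3′ on the strand of the gene. All 3 genes had a window, with 3 for CA10, 2 for ARHGAP36 and 1 for DRD1, and the window of the outermost start is printed. The windows are chr17:52159974-52160273 for CA10, chrX:131058096-131058395 for ARHGAP36 and chr5:175444133-175444432 for DRD1. Capitals mark matches on either strand. The letters searched were TGACG for the half-site of the cyclic AMP response element. They were also CACGTG, known as an E-box, and TATAAA for the TATA box. The last were GGGCGG, the GC box that Sp factors bind, with CCAAT as the CAAT box.
CA10: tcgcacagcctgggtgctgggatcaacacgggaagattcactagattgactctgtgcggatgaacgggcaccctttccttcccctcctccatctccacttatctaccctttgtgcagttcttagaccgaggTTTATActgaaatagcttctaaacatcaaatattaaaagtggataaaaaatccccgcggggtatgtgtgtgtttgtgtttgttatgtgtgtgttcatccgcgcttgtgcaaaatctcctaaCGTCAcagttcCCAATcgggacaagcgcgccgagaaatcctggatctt
ARHGAP36: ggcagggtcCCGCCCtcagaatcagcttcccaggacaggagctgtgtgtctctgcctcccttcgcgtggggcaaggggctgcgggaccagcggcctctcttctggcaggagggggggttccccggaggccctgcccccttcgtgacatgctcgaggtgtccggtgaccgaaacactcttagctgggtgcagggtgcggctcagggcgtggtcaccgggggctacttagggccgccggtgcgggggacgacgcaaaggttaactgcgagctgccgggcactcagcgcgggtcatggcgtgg
DRD1: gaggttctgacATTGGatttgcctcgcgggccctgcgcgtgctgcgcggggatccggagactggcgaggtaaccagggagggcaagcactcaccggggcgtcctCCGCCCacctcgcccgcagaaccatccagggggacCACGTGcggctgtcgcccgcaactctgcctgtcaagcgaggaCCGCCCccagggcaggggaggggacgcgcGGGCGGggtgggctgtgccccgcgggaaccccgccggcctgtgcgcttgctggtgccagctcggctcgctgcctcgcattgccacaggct
The 3 printed sequences had little in common in composition. The CA10 window held 47.3% G and C and 14 CpG dinucleotides, the ARHGAP36 window 68.7% and 23, and the DRD1 window 72.3% and 31. Over 35116 RefSeq windows of the same length the median was 58.7% (quartiles 47.0% and 68.0%) and 14 CpG (quartiles 4 and 28). The printed CA10 window is therefore at the lower quartile of G and C content and the other 2 printed windows above the upper quartile.

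None of the motifs was held by all 3 printed windows, which are those of the outermost starts only. Of the windows not printed, window 3 of CA10 held 68.7% G and C, 26 CpG and 3 GC boxes. Window 2 of ARHGAP36 held 66.3%, 28 CpG and 3 GC boxes. Each gene thus had a window rich in G and C with GC boxes, and which start is used was not resolved. The CA10 window matched the half-site TGACG on the other strand, 3 bases past the start, TATAAA on the other strand at −119, and CCAAT at 14. Of all windows 24.6% hold TGACG, 11.5% TATAAA and 34.6% CCAAT, while the full element TGACGTCA, which contains TGACG, is in 1.85% and in none of the printed windows. The ARHGAP36 window matched 1 GC box, on the other strand at −241, a motif found in 45% of windows. The DRD1 window matched 3 GC boxes, at −40, −69 and −146, a CCAAT on the other strand at −239, and CACGTG at −111, which 7.26% of windows hold. It also held a G-quadruplex pattern, 4 runs of at least 3 G separated by 1 to 7 bases, at bases 191 to 213, where it overlaps the GC box at −40. This pattern is left in lower case and occurs in 25% of windows. A match describes letters and is not a binding site.

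The 3 genes were present in all 12 WT libraries and at 0 to 4 counts in all 12 KO libraries. Fewer cells expressing a gene and less RNA per cell cannot be told apart in these bulk samples.

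CA10 was measured in the WT control libraries of the DAXX series at 24.4, 24.8 and 24.1 CPM (242, 212 and 197 counts). It had no count in the 3 DAXX_KO control libraries, where 3 counts over the group correspond to 0.128 CPM. The WT level of CA10 was thus at least 192-fold higher than in DAXX_KO. In the ATRX series CA10 was at 45.5, 50.3 and 47.2 CPM in WT control and at 0, 0.0827 and 0 CPM in ATRX_KO control, a single count in 3 libraries. The ratio of the summed levels was 1741, with an exact 95% counting interval of 312 to 68793.

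ARHGAP36 was at 7.26, 7.14 and 12.6 CPM in the WT control libraries of the DAXX series, where the replicate with 12.6 CPM stood apart from the other two. It was steadier in the ATRX series, at 12.9, 12.9 and 13 CPM. In the 6 KO control libraries of both series ARHGAP36 had no count. Its WT level was at least 69.4-fold higher than in DAXX_KO and at least 158-fold higher than in ATRX_KO.

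DRD1 was at 6.46, 7.5 and 5.01 CPM in the WT control libraries of the DAXX series and had no count in DAXX_KO control, a level at least 49.7-fold higher in WT. The ATRX series had DRD1 at 14.2, 17.0 and 16 CPM in WT control and at 0, 0.0827 and 0 CPM in ATRX_KO control. The single count in ATRX_KO gave a ratio of 573 (exact 95% counting interval 102 to 22683). In control, no KO library reached the lowest WT library for any of the 3 genes, as the rule required. Over all genes tested, 29.9% had all DAXX_KO control libraries below all WT ones, and 25.6% had this in the ATRX series.

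Etoposide left the difference between WT and KO in place for all 3 genes. Each was called lower in both knockouts, 3 of 3 in each series. The 3 genes were chosen as near absent in the same clones in control. The choice thus favoured these calls, which are no separate evidence of a loss. Of all genes tested, 25.2% were called lower in DAXX_KO with etoposide, 22.9% in ATRX_KO and 12.8% in both. These shares are given for scale only, since most genes were not chosen in this way. The libraries of WT and KO did not overlap for any of the 3 genes. This was the case with KO below WT for 27.6% of all genes in DAXX_KO and for 26.3% in ATRX_KO.

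With etoposide, CA10 was at 5.06, 5.38 and 5.29 CPM in WT libraries of the DAXX series and at 0.123, 0.21 and 0.225 CPM in DAXX_KO. These are 124 counts against 5, a ratio of 27.8 (exact 95% counting interval 11.6 to 87.1). The fitted log2 fold change was −4.70, with an adjusted p of 2.46e-09 in edgeR's quasi-likelihood test. In the ATRX series CA10 was at 8.17, 8.26 and 7.44 CPM in WT and at 0.0882, 0.0715 and 0.299 CPM in ATRX_KO, a ratio of 51.4 (23.3 to 141). The log2 fold change was −5.62 (adjusted p = 3.24e-10 in edgeR). All 6 KO libraries with etoposide held 1 to 4 CA10 counts, whereas the 6 KO control libraries held 1 count in all.

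ARHGAP36 was at 11.6, 8.97 and 9.49 CPM in WT libraries of the DAXX series with etoposide and again had no count in DAXX_KO, a level at least 88.6-fold higher in WT (adjusted p = 1.3e-08 in edgeR). The ATRX series had it at 11.8, 13.2 and 10.7 CPM in WT and at 0, 0.0715 and 0.0747 CPM in ATRX_KO. The 383 counts against 2 gave a ratio of 231 (63.4 to 1911) and a log2 fold change of −7.61 (adjusted p = 3.24e-10 in edgeR). ARHGAP36 was thus the member with the fewest counts in the KO libraries, 2 counts in 12 libraries.

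DRD1 was at 3.54, 2.99 and 2.98 CPM in WT libraries of the DAXX series with etoposide and at 0, 0.315 and 0.225 CPM in DAXX_KO. The ratio was 16.8 (6.90 to 53.3), from 75 counts against 5, with a log2 fold change of −3.98 (adjusted p = 4.31e-06 in edgeR). Libraries of the ATRX series had DRD1 at 7.81, 5.48 and 6.66 CPM in WT and at 0, 0 and 0.0747 CPM in ATRX_KO. This is 214 counts against 1, a ratio of 258 (45.8 to 10227) and a log2 fold change of −7.55 (adjusted p = 2.06e-09 in edgeR). The fitted fold changes of genes so near 0 depend on the small count that edgeR adds, so the ratios are given beside them. The intervals of the ratios cover counting error only, and replicates differed by more than counting error.

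**Figure D1:**
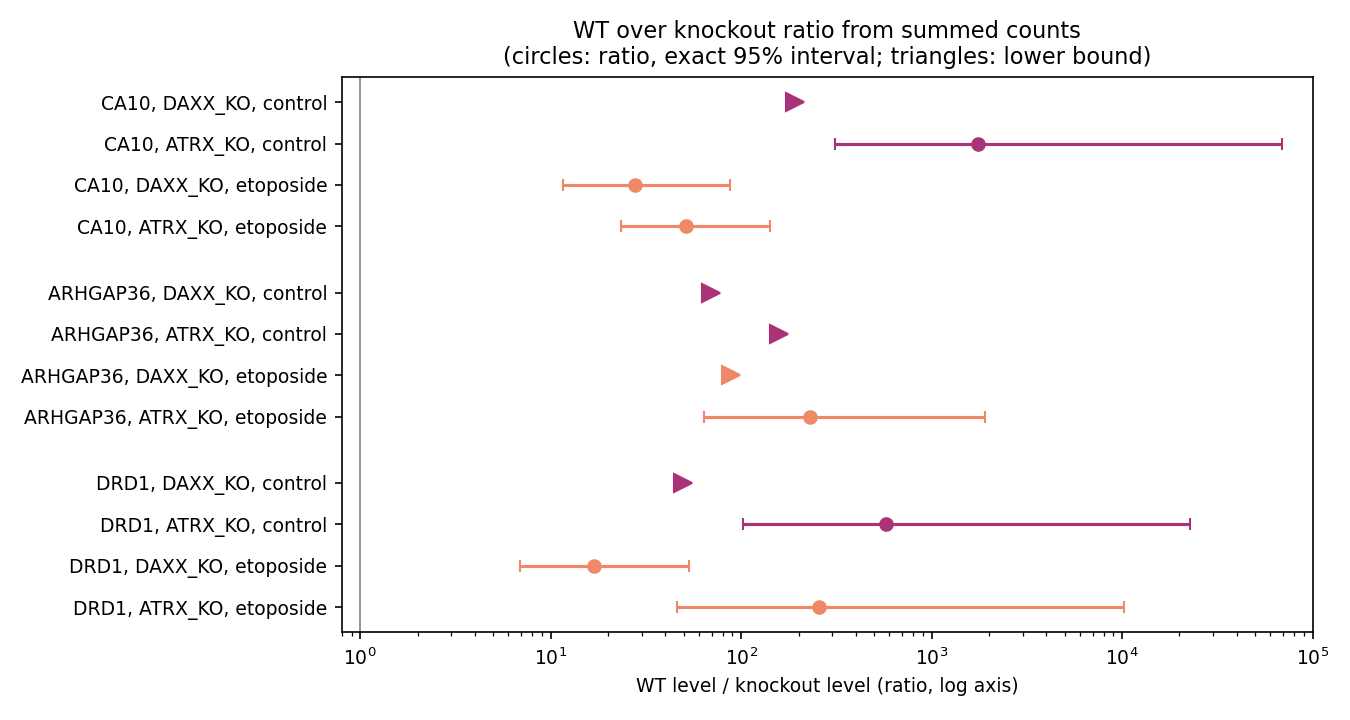
Ratio of the WT level to the KO level for each gene, knockout and condition (log axis), with circles and bars for ratios and their exact 95% counting intervals and triangles for lower bounds where the knockout had no count. The lowest ratio, 16.8 for DRD1 in DAXX_KO with etoposide, has a counting interval of 6.90 to 53.3.

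The effects of the 2 knockouts with etoposide were compared in 1 model of all 24 libraries, in which 34.5% of genes differed. The difference (ATRX_KO minus DAXX_KO effect, log2) was −0.86 for CA10 (SE 0.68, adjusted p = 0.481 in edgeR) and 2.13 for ARHGAP36 (adjusted p = 0.312), so neither was called. For DRD1 it was −3.46 (SE 1.09, adjusted p = 0.0156 in edgeR), but this rests on 5 counts in DAXX_KO and 1 in ATRX_KO, with at most 3 in any library, and is void as a comparison of the knockouts. The depth does not separate the 2 knockouts for any of the 3 genes.

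The 2 sets of WT libraries did not have equal levels. In control, levels in the ATRX series were 1.95-fold higher than in the DAXX series for CA10, 1.44-fold for ARHGAP36 and 2.49-fold for DRD1, with no overlap between the libraries. These are descriptions, and 1.56%, 7.27% and 0.543% of genes at 1 CPM or more in WT were as high or higher. With etoposide, where 15.9% of genes were called in this comparison and 8.44% called higher, DRD1 was higher in the ATRX series by 1.07 on the log2 scale (SE 0.26, adjusted p = 0.00616 in edgeR). CA10 was higher by 0.60 (SE 0.16, adjusted p = 0.0112), and both genes had every ATRX series library above every DAXX series one, as had 20.6% of genes. The call of CA10 was lost without replicate 1 of the DAXX series WT libraries with etoposide (0.54, adjusted p = 0.0585) or replicate 2 of the ATRX series ones (0.54, adjusted p = 0.0501). For ARHGAP36 the difference was 0.25 (SE 0.21, adjusted p = 0.468) and the libraries overlapped. The WT libraries of the ATRX series were also larger, so the series, any difference in its WT cells and its libraries cannot be told apart.

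Etoposide moved the 3 genes differently in WT cells. The change is described without a test, because the control libraries chose the genes. CA10 had mean levels of 24.4 ± 0.382 CPM in control and 5.24 ± 0.167 CPM with etoposide in the DAXX series (SD, n = 3), a 4.66-fold lower level. The ATRX series means were 47.6 ± 2.41 and 7.96 ± 0.449 CPM, a 5.99-fold lower level. Of the genes at 1 CPM or more in WT, 1.85% (DAXX series) and 0.855% (ATRX series) were as low or lower. CA10 thus belonged to the genes with the largest decreases, and its libraries with etoposide lay below all control ones, as for 34.3% and 34.1% of genes tested.

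DRD1 had means of 6.32 ± 1.25 CPM in control and 3.17 ± 0.320 CPM with etoposide in the DAXX series, a 1.99-fold lower level without overlap. The means of the ATRX series were 15.7 ± 1.41 and 6.65 ± 1.17 CPM, a 2.36-fold lower level, also without overlap. The decreases of DRD1 were less extreme among genes, with 12.9% and 9.12% as low or lower. ARHGAP36 had means of 9.0 ± 3.11 and 10.03 ± 1.41 CPM in the DAXX series and of 12.9 ± 0.0854 and 11.9 ± 1.25 CPM in the ATRX series. The log2 changes of 0.16 and −0.12 had opposite signs, and libraries overlapped in both series.

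Ordered by mean level, CA10 fell into 4 WT groups whose libraries did not overlap, from ATRX series control through DAXX series control and ATRX series etoposide to DAXX series etoposide. The 4 KO groups of CA10, with means of 0 to 0.186 CPM, held at most 4 counts per library and were not separated at this depth. For DRD1 the ATRX series control libraries were highest and the DAXX series etoposide libraries lowest among WT, while the ATRX series with etoposide (5.48 to 7.81 CPM) and the DAXX series in control (5.01 to 7.5 CPM) overlapped. For ARHGAP36 each WT group overlapped with the next in order, although the control libraries of the 2 series did not overlap with each other. The KO groups had means of at most 0.180 CPM for DRD1 and 0.0487 CPM for ARHGAP36.

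The same pattern was shared by a small set of genes. A reading of the rule with numbers, at least 1 CPM in each of the 6 WT control libraries and at most 3 counts in each of the 6 KO control libraries, was met by 41 of 12887 genes with 1 CPM or more in each WT control library (0.318%), the 3 members included. With a minimum of 0.5 or 2 CPM it was met by 66 or 23 genes, again with all 3 members. Since 3′ libraries give about a tag per transcript, CPM was not divided by length. Levels in this set ran from 1.43 to 81.9 CPM (mean of WT control libraries, median 3.83), with ELAVL4, a neuronal RNA-binding protein, highest at 81.9 CPM, followed by AUTS2, a regulator of neurodevelopment, at 43.7 CPM and CA10 at 36 CPM. The cadherin CDH6 (16.8 CPM) and the neural adhesion molecule NCAM2 (13.8 CPM) came next, and DRD1 and ARHGAP36 were at ranks 7 and 8, both at 11 CPM.

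With etoposide, 21 of the 41 genes, DRD1 and ARHGAP36 among them, were still at 3 counts or fewer in all 6 KO libraries. Of the other 20, CA10 reached 4 counts, 4 genes exceeded 10 counts, and 15 was the highest count. In WT cells the mean level was lower with etoposide than in control for 29 of the 41 and higher for 12, with a median log2 change of −0.84. The choice of genes by their WT control level bears on this direction. AUTS2 (7.58 CPM with etoposide) and NCAM2 (3.83 CPM) dropped as CA10 did, whereas ELAVL4 fell less, from 81.9 to 59.6 CPM. Of the 41, 31 had a higher WT control level in the ATRX series than in the DAXX series, all 3 members included. The median log2 difference was 0.52, beside 0.007 over all genes at 1 CPM or more in WT. How many of all genes were higher was not computed.

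**Figure D2:**
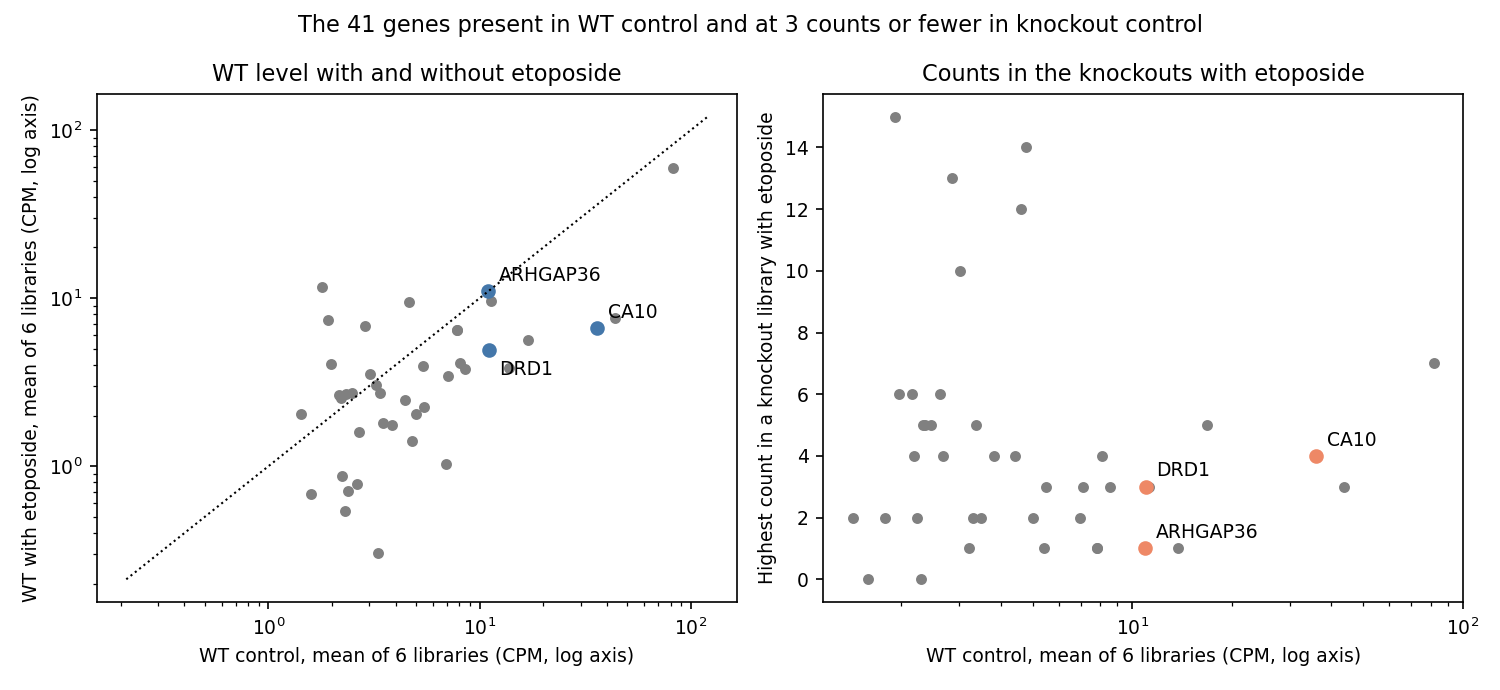
The 41 genes with 1 CPM or more in the WT control libraries and at most 3 counts in the KO control libraries, with WT level in control and with etoposide on log axes in CPM (left, dotted line for equal levels) and the highest count in a KO library with etoposide (right). CA10 and DRD1 lie below the dotted line and ARHGAP36 on it, and the KO counts of the 3 members, at most 4, are among the lower ones in a range up to 15.

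The genes most like each member were found by Pearson's r of log2(CPM + 1) over the 24 libraries, among 16851 genes. The points fall into 12 WT and 12 KO libraries, so a high r includes that separation and is given as a description only. For CA10 the leading genes were NCAM2 (r = 0.994), CDH6 (0.991), AUTS2 (0.988) and AFAP1L2 (0.985), an adaptor of actin filaments. DRD1 was at rank 8 for CA10 (0.978) and ARHGAP36 at rank 88 (0.921). NCAM2 ran in parallel with CA10 over the WT groups, at 12.9 CPM in control and 3.39 CPM with etoposide in the DAXX series and at 14.7 and 4.28 CPM in the ATRX series.

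For ARHGAP36 the leading genes were ELAVL4 (0.994), the cytochrome CYP2S1 (0.994), the GABA receptor subunit GABRA2 (0.987), and ENSG00000185751 and XAGE2 (both 0.985). The last pair had identical values, as near-identical gene copies can, so their reads may be split arbitrarily. CYP2S1 had 9.18 and 11 CPM in control and with etoposide in WT of the DAXX series, and 17.2 and 12.7 CPM in the ATRX series. For DRD1 they were the planar cell polarity gene PRICKLE1 (0.987), CDH6 (0.987), GABRA2 (0.982), CA10 (0.978) and CALB2 (0.978), the calcium-binding calretinin. CALB2 differed from the others in keeping expression in the knockouts, with 42.4 CPM in WT and 4.24 CPM in DAXX_KO control, and 79.4 CPM in WT and 2.32 CPM in ATRX_KO control.

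The partners of the 3 genes were followed in lists drawn from their known functions, with the members left out. In the dopamine and D1 signalling list 15 of 29 genes were tested in each series. In DAXX_KO control libraries 3 were called higher and 2 lower, and in ATRX_KO 2 higher and 6 lower, against 26.7% higher and 26.6% lower among all genes in DAXX_KO and 20.8% and 21.0% in ATRX_KO. The medians of the list were 0.27 for DAXX_KO and −0.40 for ATRX_KO (log2), beside 0.02 over all genes in each. Only PDE4B, a phosphodiesterase that degrades cyclic AMP, was called in the same direction in both, with −1.04 (adjusted p = 0.000112 in edgeR) in DAXX_KO and −0.73 (adjusted p = 0.00765) in ATRX_KO, where the call was lost without WT replicate 2 (−0.52, adjusted p = 0.0602). It was also lower with etoposide, by −1.29 and −1.09 (adjusted p = 2.31e-05 and 0.000321).

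Close relatives and partners of DRD1 are given here for their role and not by the rule for naming genes. The D2 receptor DRD2 had at most 2 counts in a library and 14 over all 24, DRD3 at most 1, DRD4 at most 4 and DRD5, the other D1-type receptor, at most 11. Also near absent were PPP1R1B, which encodes the D1 signalling protein DARPP-32 in striatal neurons (at most 6 counts), and TH, the enzyme that makes the dopamine precursor (at most 3). GNAS, the stimulatory G protein subunit, was abundant in all 8 groups, at 176 to 257 CPM. In WT cells DRD1 was thus present while the other dopamine receptors had few counts.

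Of the protein kinase A and Hedgehog list, 22 of 29 genes were tested in the DAXX series. In DAXX_KO control 10 were called higher and 6 lower, and in ATRX_KO control 7 higher and 10 lower, with median log2 fold changes of 0.34 and −0.28. The shares of all genes in each knockout are those given for the dopamine list. In both knockouts 6 were higher and 4 lower, beside 10.7% and 12.7% of all genes. PRKAR2B, a regulatory subunit of protein kinase A, fell from 31.8 to 1.28 CPM in DAXX_KO (log2 −4.62, adjusted p = 5.62e-12 in edgeR) and from 22.4 to 3.87 CPM in ATRX_KO (−2.53, adjusted p = 5.43e-09). The related kinase PRKX fell by 2.45 and 2.06 on the log2 scale (adjusted p = 2.04e-06 and 9.66e-07), and has a near-identical copy on the Y chromosome with which reads may be shared.

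The 3 inhibitor peptides of protein kinase A in the list did not move together. PKIB rose from 8.75 to 26.8 CPM in DAXX_KO and from 11.5 to 33.1 CPM in ATRX_KO (log2 1.61 and 1.53, adjusted p = 9.3e-08 and 4.72e-06 in edgeR). PKIG rose by 1.72 and 0.93 (adjusted p = 7.56e-09 and 1.87e-05). PKIA, given to complete the group, fell by 0.91 in DAXX_KO (adjusted p = 1.46e-07) and was at −0.06 in ATRX_KO (adjusted p = 0.683). PRKAR2B, PRKX, PKIB and PKIG kept their direction with etoposide, with PRKAR2B at −2.79 and −1.46 and PKIB at 1.77 and 1.28. Among the targets of ARHGAP36 named for their role, PRKACA was at 59.2 to 110 CPM and PRKACB at 16.6 to 28.1 CPM over the 8 groups, while the Hedgehog transducer SMO had at most 4 counts and GLI1, a target gene of the pathway, at most 14 counts in a library.

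**Figure D3:**
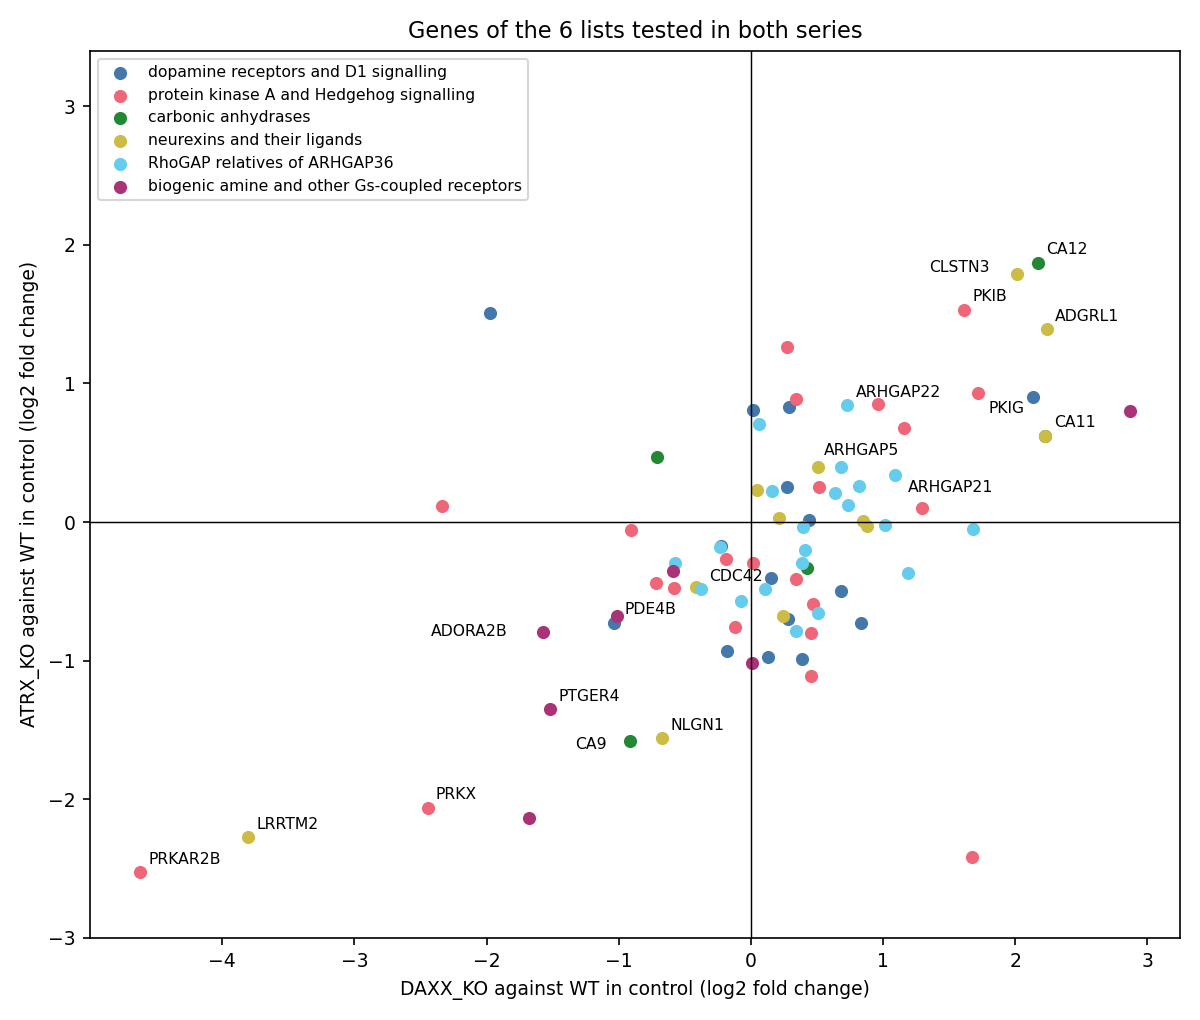
Log2 fold change against WT in control for the genes of the 6 lists tested in both series, DAXX_KO on the horizontal and ATRX_KO on the vertical axis, coloured by list. The labelled genes lie at the upper right and lower left, with PRKAR2B lowest at −4.62 and −2.53, while other genes lie near 0 or at the remaining corners.

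Of the carbonic anhydrases other than CA10, 5 of 14 were tested, and in each knockout 2 were higher and 1 lower in control. The shares of all genes were 26.7% higher and 26.6% lower in DAXX_KO and 20.8% and 21.0% in ATRX_KO. CA12, a catalytically active enzyme of the plasma membrane, rose from 17.0 to 76.5 CPM in DAXX_KO and from 11.5 to 42.0 CPM in ATRX_KO (log2 2.17 and 1.87, adjusted p = 1.17e-12 and 1.94e-08 in edgeR). CA9, another membrane enzyme that responds to low oxygen, fell by 0.92 and 1.58 (adjusted p = 0.0303 and 0.00829). The CA9 call in DAXX_KO is weak, since it was lost in 6 of 15 alternatives, among them 4 that leave out 1 library (WT replicates 1 and 2, KO replicates 1 and 3, adjusted p = 0.0842, 0.0645, 0.122 and 0.0766), and the value in ATRX_KO was −2.70 without KO replicate 3. CA11 is like CA10 an inactive, secreted relative, and it rose by 2.23 and 0.62 (adjusted p = 1.76e-09 and 0.0309). In ATRX_KO the CA11 call was lost with only the compared groups (adjusted p = 0.062) and without WT replicate 1, WT replicate 3 or KO replicate 2 (0.58, 0.41 and 0.52, adjusted p = 0.0882, 0.151 and 0.112). With etoposide CA11 was higher by 1.83 in DAXX_KO, while in ATRX_KO the value was 0.27 (adjusted p = 0.276). CA8, the remaining inactive relative, had at most 6 counts in a library.

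In the list of neurexins and their ligands 12 of 28 genes were tested for DAXX_KO and 15 for ATRX_KO. In control, 7 were higher and 2 lower in DAXX_KO and 5 higher and 5 lower in ATRX_KO, with 4 higher and 2 lower in both. Over all genes the shares were 26.7% higher and 26.6% lower in DAXX_KO, 20.8% and 21.0% in ATRX_KO, and 10.7% and 12.7% in both. The calsyntenin CLSTN3 (log2 2.01 and 1.79, adjusted p = 0.00408 and 0.000697 in edgeR) and the latrophilin ADGRL1 (2.24 and 1.39, adjusted p = 1.87e-05 and 0.00115) rose in both knockouts. The neurexin ligands LRRTM2 (−3.80 and −2.27, adjusted p = 0.00122 and 0.00258) and NLGN1 (−0.67 and −1.56, adjusted p = 0.00199 and 6.36e-06) fell in both. LRRTM2 was at most 0.79 CPM in control and rested on few counts. CLSTN3 was also low in WT control, at 0.331 CPM in the DAXX series and 0.461 CPM in the ATRX series. The DAXX series value is near the floor of 3 counts per library. With etoposide 2 of these 8 calls were lost, NLGN1 in DAXX_KO (−0.47, adjusted p = 0.0962) and CLSTN3 in ATRX_KO (0.64, adjusted p = 0.096). The CLSTN3 call in DAXX_KO with etoposide was lost with DESeq2 (adjusted p = 0.0611). It was also lost in edgeR without WT replicate 1 or KO replicate 3 (adjusted p = 0.0782 and 0.105). The ADGRL1 call in ATRX_KO with etoposide was lost in edgeR without WT replicate 1 or KO replicate 2 (adjusted p = 0.0753 and 0.0525). Of the neurexins, to which CA10 binds, NRXN2 was at 14.2 to 35.6 CPM and NRXN3 had at most 10 counts in a library.

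Of the RhoGAP relatives of ARHGAP36 and their GTPases, 21 of 24 genes were tested. In control, 14 were higher and 3 lower in DAXX_KO and 4 higher and 8 lower in ATRX_KO, with 3 higher and 2 lower in both. Among all genes 26.7% were higher and 26.6% lower in DAXX_KO, 20.8% and 21.0% in ATRX_KO, and 10.7% and 12.7% in both. The RhoGAP genes ARHGAP22 (log2 0.73 and 0.85), ARHGAP5 (0.68 and 0.40) and ARHGAP21 (1.09 and 0.34) rose, with adjusted p between 2.12e-10 and 0.00377 in edgeR. The GTPase CDC42 fell by 0.38 and 0.48 (adjusted p = 0.000526 and 0.000359), a call lost in DAXX_KO with library totals alone (−0.19, adjusted p = 0.0626). None of the named relatives approached 0 in a knockout, with the lowest mean at 14.6 CPM, for ARHGAP22 in WT with etoposide.

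Of the other receptors that couple to stimulatory G proteins, 7 of 19 were tested for DAXX_KO and 11 for ATRX_KO. In control 1 was higher and 4 lower in DAXX_KO, and 2 higher and 4 lower in ATRX_KO, with 3 lower and 0 higher in both (edgeR). All genes tested gave 26.7% higher and 26.6% lower in DAXX_KO, 20.8% and 21.0% in ATRX_KO, and 10.7% and 12.7% in both. The prostaglandin receptor PTGER4 fell by 1.52 and 1.35 (adjusted p = 1.17e-05 and 2.05e-05 in edgeR), and the adenosine receptor ADORA2B by 1.57 and 0.80 (adjusted p = 2.47e-08 and 0.000182). Unlike DRD1, these 2 receptors kept 3.23 CPM or more in the KO control libraries. With etoposide PTGER4 stayed lower, at −0.88 and −0.78 (adjusted p = 0.00877 and 0.00641), while ADORA2B was at −0.26 in DAXX_KO (adjusted p = 0.264).

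Genes around the 3 loci were examined to describe how far the loss extended along the chromosome. Of 96 genes within 2 Mb of CA10, 34 were tested in both series, of which 14 were lower and 0 higher in both knockouts in control (edgeR), beside 12.7% and 10.7% of all genes. The median log2 fold changes were −0.62 over the 34 genes tested for DAXX_KO and −0.37 over the 39 tested for ATRX_KO, beside 0.02 over all genes. Most of the genes lower in both lie more than 1 Mb away, since within 1 Mb 4 of 15 were lower. Near 0 in no group were ANKRD40 (log2 −0.98 and −1.04), the nucleoside kinase NME1 (−1.45 and −0.91), the nuclease EME1 (−1.59 and −0.89), the mitochondrial ribosomal protein MRPL27 (−0.71 and −0.87) and LRRC59 (−1.37 and −0.71), with adjusted p between 1.82e-13 and 0.00011. The nearest tested gene, RN7SL699P, lies 34556 bp before CA10 and was at 17.8 CPM in WT and 18.5 CPM in DAXX_KO control (log2 0.06, adjusted p = 0.725) and at 20.3 and 23.0 CPM in the ATRX series (0.19, adjusted p = 0.324). It belongs to a large family of near-identical copies, so its reads are uncertain, as are those of MTCO1P40, 945718 bp on the other side (−0.42 and −0.15, adjusted p = 0.118 and 0.588).

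Around ARHGAP36, 19 of 61 genes were tested for DAXX_KO and 20 for ATRX_KO, and 4 were higher and 0 lower in both knockouts in control, beside 10.7% and 12.7% of all genes. These were the transcriptional corepressor BCORL1 (log2 0.94 and 0.43), the transcription factor ELF4 (0.46 and 0.42), the palmitoyltransferase ZDHHC9 (0.88 and 0.38) and the lipid phosphatase OCRL (1.25 and 0.34), with adjusted p between 7.98e-09 and 0.0395 in edgeR. With etoposide the genes of this region were 4 higher and 6 lower in ATRX_KO (median log2 −0.31). Of those named, BCORL1 (−0.21, adjusted p = 0.248), ZDHHC9 (0.07, adjusted p = 0.409) and OCRL (0.14, adjusted p = 0.343) were not called there, while ELF4 was (0.74, adjusted p = 9.25e-05). In ATRX_KO control the BCORL1 call was lost in 9 alternatives, 5 of them without 1 library (adjusted p up to 0.126), and that of OCRL without WT replicate 1, WT replicate 2 or KO replicate 3 (adjusted p = 0.0647, 0.081 and 0.131). The nearest tested gene was ENOX2, 155112 bp away, at 34.7 CPM in WT and 57.0 CPM in DAXX_KO control (log2 0.72, adjusted p = 1.2e-05) and at 27.5 and 33.5 CPM in the ATRX series (0.29, adjusted p = 0.0915). On the other side IGSF1, 183621 bp away, was tested in the ATRX series only (0.20, adjusted p = 0.866). Transcripts of ENOX2 were thus present in both knockouts. IGSF1 was low in all groups, at 0.624 CPM in WT and 0.611 CPM in DAXX_KO control. In DAXX_KO with etoposide it was at 0.193 CPM, under the floor of 3 counts per library.

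Around DRD1, 29 of 95 genes were tested for DAXX_KO and 32 for ATRX_KO, with 2 higher and 9 lower in both knockouts in control, beside 10.7% and 12.7% of all genes. SFXN1, a mitochondrial serine transporter only 32880 bp from DRD1, was at 112 CPM in WT and 65.1 CPM in DAXX_KO control (log2 −0.78, adjusted p = 1.09e-06 in edgeR) and at 114 and 91.6 CPM in the ATRX series (−0.31, adjusted p = 0.00381). With etoposide SFXN1 in ATRX_KO was at 0.04 (adjusted p = 0.687). The nearest tested gene on the other side, MSX2, a homeobox factor 709140 bp away, shared the loss. MSX2 had 1.65 and 1.61 CPM in WT control and no count in either knockout in control, and it meets the rule at a minimum of 0.5 CPM. With etoposide MSX2 was at 0.0726 CPM in DAXX_KO and 0.0975 CPM in ATRX_KO. The other named genes were RGS14, a regulator of G proteins (−3.01 and −1.46), the coagulation factor F12 (−1.58 and −0.72), GPRIN1 (−1.71 and −0.59) and SIMC1 (0.95 and 1.46), with adjusted p between 6.24e-08 and 0.0105. In ATRX_KO the F12 call was lost without WT replicate 2 (adjusted p = 0.0501) or KO replicate 1 (adjusted p = 0.0551). With etoposide GPRIN1 turned to 0.31 in ATRX_KO (adjusted p = 0.116), and SIMC1 in DAXX_KO was at 0.69 (adjusted p = 0.09). Whether the deposited counts used strand is not stated, and 27 of the 38 genes named from the lists and neighbours overlap another gene of the table, 23 of them one on the other strand. The values of these genes are uncertain. Among them are ANKRD40, NME1, EME1 with LRRC59, ZDHHC9, ENOX2, IGSF1, SFXN1, SIMC1, F12 and GPRIN1, and from the lists LRRTM2, CA9, CA11, PKIG and PTGER4.

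HRH2, the histamine H2 receptor and another receptor of the stimulatory class near DRD1, was chosen after its values were seen, and the difference between its 2 knockout effects in control was not tested. It was at 1.15 CPM in WT and 3.85 CPM in ATRX_KO control, and at 0.908 CPM in WT with no count in DAXX_KO control.

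**Figure D4:**
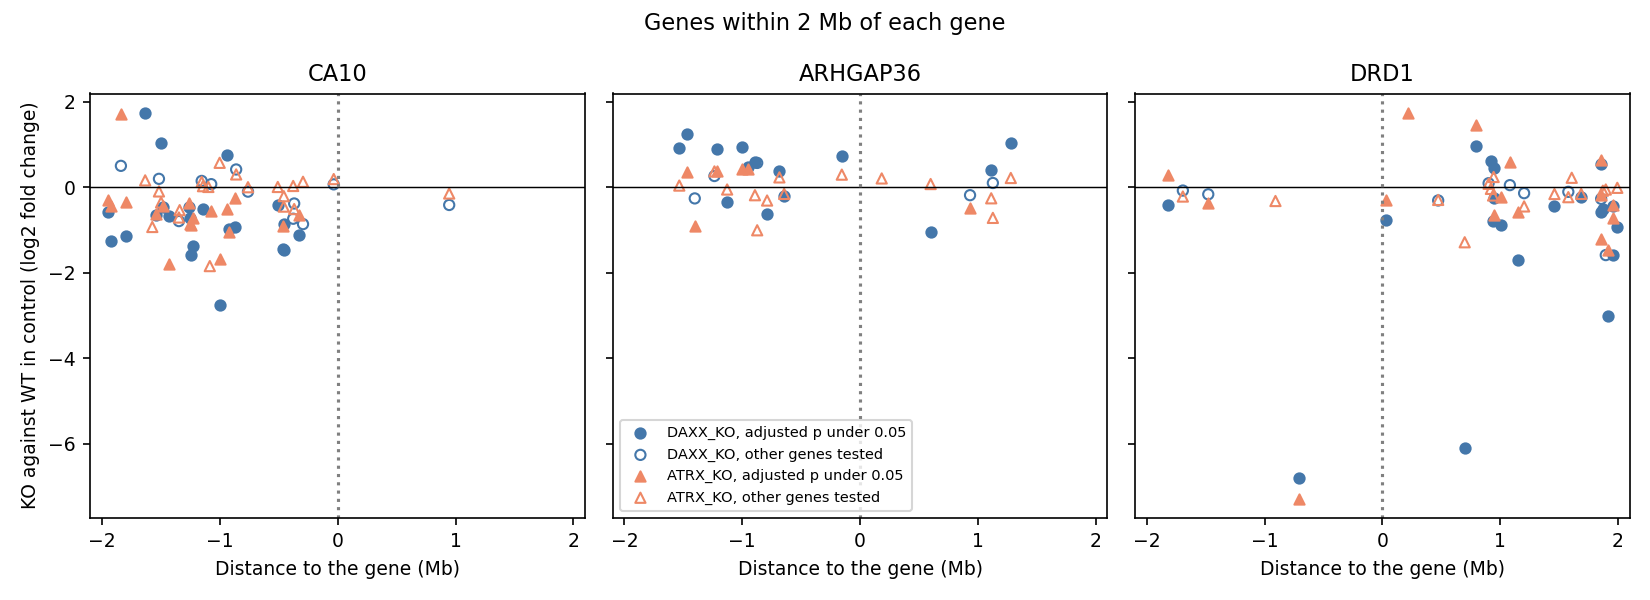
Log2 fold change against WT in control for genes tested within 2 Mb of CA10, ARHGAP36 and DRD1, against distance in Mb from the gene (dotted line), with circles for DAXX_KO and triangles for ATRX_KO and filled symbols for adjusted p under 0.05. Genes left of CA10 lie mostly below 0, and the low pair left of DRD1 is MSX2, at −6.81 and −7.28.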

How the data were processed

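The authors made QuantSeq 3′ libraries, aligned reads with STAR to build 37 of the human genome and estimated counts per gene with RSEM. The deposited values are these estimated counts as whole numbers, not normalized. Whether counting used strand is not given in the sources used here. Gene symbols came from GENCODE release 44 placed on build 37, which matched 55501 of 57736 IDs. Titles set the groups, since the genotype tag of DAXX_KO names ATRX although DAXX mRNA was lower there.

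The tests used edgeR 4.0.16 in R 4.3.3 (TMM, factors 0.921 to 1.077; filterByExpr, minimum count 10 and total 15; quasi-likelihood test; Benjamini-Hochberg over all genes tested; FDR 0.05), with the 12 libraries of a series in 1 model of 4 groups, or all 24 between series. SD and n refer to libraries. Ratios are of summed counts with exact 95% intervals, and groups with no count were set to 3 counts. DESeq2 1.42.0 was an alternative. Replicates differed by more than counting error (chi-square per degree of freedom 2.16 to 17.1 over 24 pairs). The model was tested on simulated data. Promoters came from RefSeq. Figures used matplotlib 3.10.9 in Python 3.11.15.

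The members and lists were chosen with earlier results of these data known. Named genes were the members, DAXX and ATRX, up to 4 genes per list and 5 neighbours per member called in the same direction in both knockouts in control with the largest smaller change, the nearest tested neighbours, the 5 most similar genes per member and the 5 highest genes that meet the rule. Some genes that this rule names are not reported here.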

Additional observations from a re-analysis of the deposited data

Results flagged for a closer look

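The difference between the effects of the 2 knockouts with etoposide passed the threshold for DRD1, with a log2 difference of −3.46 (SE 1.09, adjusted p = 0.0156 in edgeR), where 34.5% of all genes were called. DRD1 had 0, 3 and 2 counts in the 3 DAXX_KO libraries and 0, 0 and 1 in the 3 ATRX_KO libraries with etoposide, all at or under the floor of 3 counts, so the value is void as a comparison of the knockouts. The call was lost without replicate 2 of DAXX_KO with etoposide (−2.83, adjusted p = 0.139), without replicate 3 of it (−3.31, adjusted p = 0.0513) and without replicate 2 of ATRX_KO with etoposide (−2.99, adjusted p = 0.0502).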

How the results depend on the processing

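The 35 results of comparisons were recomputed under 560 alternatives, of which 535 kept direction and call or stayed within 1.5 times, 5 lost the call and 20 moved, with 0 reversed. Of 2427 alternatives for single named genes 2372 kept them, 42 lost a call, 9 gained one and 4 reversed. The lower levels of CA10, ARHGAP36 and DRD1 in each knockout with etoposide kept their calls under all 15 alternatives each. The choice of these genes favoured these calls, so keeping them is no separate evidence of a loss. With at least 10 counts in every library the members are not tested, so this alternative gives no value for them. Leaving out 1 library moved the count of WT genes that differ between the series with etoposide from 2646 to 1712 to 2027, and only the compared groups gave 4190. That of CA10 moved over 0.54 to 0.62 and the DRD1 difference between knockouts over −5.08 to −2.83. For uncalled neighbours, leaving out 1 library reversed SFXN1 in ATRX_KO with etoposide (0.044, range −0.025 to 0.12) and, in ATRX_KO control, MTCO1P40 (−0.15, range −0.30 to 0.11) and IGSF1 (0.20, range −0.37 to 0.80, also −0.080). The cause was not tested.

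The alternatives for the change with etoposide, the lists and the neighbours were chosen after seeing the data. The 1 dopamine list gene called in both knockouts became 2 with RLE factors, at least 10 counts in every library or DESeq2, 3 with library totals, no filter or only the compared groups, and 0 without replicate 2 of the ATRX series WT control (0 to 1 over single libraries). The 6 neurexin genes became 3 with at least 10 counts in every library or only the compared groups. Within 1 Mb, the neighbours lower near CA10 went from 14 to 4, those higher near ARHGAP36 from 4 to 1, and near DRD1 from 2 to 1 higher and from 9 to 3 lower. Without single libraries the ARHGAP36 neighbours were 2 to 4 (2 without replicate 1 of the ATRX series WT control) and the higher DRD1 neighbours 1 to 3 (1 without replicate 3 of the DAXX series WT control), and library totals gave 5 lower near DRD1. The genes that meet the rule went from 41 to 66 or 23 with the CPM minimum.

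Library totals alone raised the share of higher calls from 50.1% to 66.2% in DAXX_KO control, from 50.1% to 60.2% in ATRX_KO with etoposide and from 53.2% to 76.4% between the WT sets with etoposide, as the median of all genes moved to 0.20, 0.11 and 0.11 on the log2 scale. Libraries that share a replicate number did not deviate together (r −0.209 to 0.0511 over 36 pairs, 0 above 0.1). With a replicate block the calls with etoposide were 7870 in DAXX_KO, 7220 in ATRX_KO, 2555 between the WT sets and 5662 between the knockouts, and in control 7951 and 6485, against 8087, 7518, 2646, 5752, 8141 and 6846 without it. No member changed its call. At most 4 counts per KO library limit any order among the KO groups.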

Other observations

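Of 81 list genes tested in both series, 10 were called in opposite directions in the 2 knockouts in control, and were picked after their values were seen. The share of all genes called in opposite directions was not computed, so whether 10 of 81 is unusual cannot be told. Among all genes 26.7% were called higher and 26.6% lower in DAXX_KO control, and 20.8% and 21.0% in ATRX_KO control. BOC, a co-receptor of Hedgehog ligands, was higher in DAXX_KO (log2 1.67) and lower in ATRX_KO (−2.41), and its effects differed with etoposide (−3.42, adjusted p = 1.15e-05 in edgeR). MAOA, an enzyme that degrades dopamine and other amines, was lower in DAXX_KO (−1.98) and higher in ATRX_KO (1.51), with a difference of 2.92 with etoposide (adjusted p = 0.000355). GLI3, a transcription factor of the Hedgehog pathway, was at 0.46 and −1.11 in control and differed by −1.57 with etoposide (adjusted p = 2.16e-05). PRKACA, the protein kinase A subunit bound by ARHGAP36, was at 0.34 and −0.41 and differed by −0.82 (adjusted p = 4.68e-05), and RHOA was at 0.41 and −0.20 and differed by −0.91 (adjusted p = 1.51e-09). For ADCY6, ARHGAP26 and ARHGAP18 the difference with etoposide was not called (adjusted p = 0.155, 0.27 and 0.0943).

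Among the 41 genes with the pattern of CA10, ARHGAP36 and DRD1, also picked after their values were seen, FAM3B rose most in WT with etoposide, from 1.79 to 11.6 CPM, with at most 2 counts in a KO library. IPCEF1 went from 1.92 to 7.37 CPM and IGF2, a growth factor, from 2.85 to 6.86 CPM, with at most 15 and 13 counts in a KO library with etoposide.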
